A study of Rattus norvegicus with 6 samples.

Results

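The mitochondrial respiratory chain and the ATP synthase were followed through their nuclear-encoded genes in tissue from healing and intact rat limbs. Members were all probes whose annotated symbol begins with Nduf, Uqcr, Cox4 to Cox8 or Atp5, is Sdha, Sdhb, Sdhc or Sdhd, is Cyc1 or begins with Cycs. Cox6a2, the heart and skeletal muscle isoform of a cytochrome oxidase subunit, was left out. This took 72 of 26481 probes, which carried 67 annotated symbols and stood for 66 genes among 12589 named genes. There were 31 subunit genes of complex I, 4 of complex II, 5 of complex III counted with cytochrome c, 11 of complex IV and 12 of complex V, and 3 assembly or stability factors (Ndufaf1, Dmac2 and Dmac2l). Among them, Cox6c-ps1 and Atp5pd-ps1 are listed by the current symbol table as pseudogenes, whose probes cannot be told apart from their parent genes by these data. No probe stood for any of the 13 subunits encoded by mitochondrial DNA.

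The animals were Sprague-Dawley rats taken as weanlings at 4 weeks of age and fed a Lieber-DeCarli liquid diet for 4 weeks, either with ethanol or as pair-fed controls without it. A pin was passed into the bone canal through a hole of 1.0 mm, and the mid-shaft was broken by a closed method. The labels do not say whether unfractured rats were pinned. Tissue was taken after 3 days from the region of the fracture, or from the matching region without one, in the right hind-limb. The 4 groups keep the letters of the labels. A is pair-fed with fracture, B pair-fed without fracture, C alcohol-fed with fracture and D alcohol-fed without fracture. Each group had 3 numbered samples, and each sample was hybridised in 1 pairing with a sample of another group on 2-colour arrays. The 6 pairings are A/B, A/C, A/D, B/C, B/D and C/D, always given in this order below. The design names A against C as the main question. Nothing in the labels states whether the 3 samples of a group came from separate rats, so p-values here cover the spread between samples only, and that spread may be technical. Callus tissue is a mixture, and fewer cells of a type cannot be told apart from less RNA per cell. The deposited values are ratios and give no levels, so the labelled tissue could not be checked against the presence of its markers.

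Each pairing has 1 deposited log ratio per probe, of unknown base, so no folds are given and all differences are in log-ratio units. Each ratio was read as the first-named over the second-named group. This is an assumption, because both dyes are listed for both channels. The columns of A/C and A/D correlated at -0.62 over all probes although both hold group A, so their common direction is not settled. A/C also correlated at -0.22 with A/B, which holds group A too, and turning A/D does not change that value. Were all 6 columns the other way round, all signs given here would change together. Each comparison is therefore also given with the A/D column alone turned, and no other column was turned alone. Single probes were fitted by the titles only. A positive difference means a higher value in alcohol-fed rats where diets are compared, and in fractured rats where fracture states are compared. The fit over the 6 pairings (limma, Benjamini-Hochberg adjustment over 23549 rows, threshold 0.05) had 3 residual degrees of freedom. The share of the sum of squares left unexplained was 0.486 for the members and 0.403 for all rows, and 0.361 and 0.317 with the A/D column turned. Precision is limited by how few arrays there were.

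In the inner mitochondrial membrane, complex I takes electrons from NADH and complex II takes them from succinate, and both pass them to ubiquinone. Complex III hands them by way of cytochrome c to complex IV, which reduces oxygen. Complexes I, III and IV pump protons, and complex V, the ATP synthase, uses the return flow to make ATP. In the first days after a fracture the broken vessels leave the site short of oxygen, and early callus cells are known to rely much on glycolysis. The nuclear genes of these complexes are known targets of the factors NRF1, GABP (an ETS factor), YY1 and the oestrogen-related receptors.

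Promoters are shown for 7 genes on which the results below turn. Five-prime to three-prime on the gene's own strand, each stretch holds 130 bases before the RefSeq start and 20 after it (assembly GRCr8), with motif letters in capitals. The motifs searched on both strands were GCATGCGC for NRF1, CCGGAAG for ETS factors, AAGATGGC for YY1 and AAGGTCA for oestrogen-related receptors. Ndufs5 (complex I, chr5:141264383-141264532, minus strand) and Cox5a (complex IV, chr8:66818154-66818303, plus strand) had the smallest p-values for fracture in alcohol-fed rats by the titles, and neither printed stretch holds a motif.
Ndufs5: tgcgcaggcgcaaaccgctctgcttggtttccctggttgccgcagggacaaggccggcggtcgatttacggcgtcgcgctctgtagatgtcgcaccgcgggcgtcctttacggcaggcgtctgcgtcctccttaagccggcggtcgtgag
Cox5a: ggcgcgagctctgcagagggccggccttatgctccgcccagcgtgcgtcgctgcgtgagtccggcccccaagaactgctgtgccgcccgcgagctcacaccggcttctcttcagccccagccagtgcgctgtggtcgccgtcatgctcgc
Atp5pf (complex V, chr11:37375082-37375231, minus strand) and Ndufa13 (complex I, chr16:19560396-19560545, plus strand) came next in that order of p-values, which was lost with the A/D column turned, where Ndufb4, Cox5a and Ndufb8 came first, and both stretches hold ETS letters.
Atp5pf: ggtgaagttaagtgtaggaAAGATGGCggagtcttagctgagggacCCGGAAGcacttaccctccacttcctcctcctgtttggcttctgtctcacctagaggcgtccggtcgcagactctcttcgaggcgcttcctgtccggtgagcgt
Ndufa13: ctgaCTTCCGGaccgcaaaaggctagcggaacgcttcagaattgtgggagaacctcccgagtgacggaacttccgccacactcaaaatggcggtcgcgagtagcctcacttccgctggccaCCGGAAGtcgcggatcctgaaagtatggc
Ndufb11 (complex I, chrX:4126187-4126336, plus strand) lay on the opposite side of 0 from these genes, and its stretch holds no motif.
Ndufb11: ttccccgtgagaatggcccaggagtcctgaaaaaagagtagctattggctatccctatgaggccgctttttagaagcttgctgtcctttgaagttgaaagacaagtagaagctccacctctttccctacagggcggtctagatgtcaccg
Uqcrc2 (complex III, chr1:184599110-184599259, plus strand) had the widest spread between pairings, and Atp5me (complex V, chr14:1464730-1464879, plus strand) was a gene of small spread. The NRF1 letters of Atp5me overlap on the 2 strands.
Uqcrc2: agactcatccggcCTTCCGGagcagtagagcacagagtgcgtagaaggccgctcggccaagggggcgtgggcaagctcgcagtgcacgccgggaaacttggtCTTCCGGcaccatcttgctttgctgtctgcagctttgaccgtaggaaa
Atp5me: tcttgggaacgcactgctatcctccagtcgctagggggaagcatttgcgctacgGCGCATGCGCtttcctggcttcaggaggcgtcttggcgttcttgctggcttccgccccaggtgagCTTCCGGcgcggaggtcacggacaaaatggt

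RefSeq windows of 300 bases (250 before the start and 50 after it) were matched for 57 of the 66 members. The NRF1 letters stood in 12.3% of the members' windows and in 3.11% of 21842 windows of protein-coding genes. The ETS letters stood in 31.6% against 10.7%, those of YY1 in 17.5% against 3.68%, and those of the oestrogen-related receptors in 12.3% against 3.78%. At least 1 of the 4 was found in 31 members (54.4%), against 19.4% of all coding windows. Ndufs5 is among the 31, because its window holds oestrogen-related receptor letters outside the printed stretch. The window of Atp5me likewise holds YY1 letters outside its printed stretch. Median GC content was 57.7% in the members' windows and 55% in all. The 31 members with a motif had a median difference of 0.33 for fracture in alcohol-fed rats, and the 26 without one a median of 0.16 (0.25 and 0.13 with the A/D column turned). All 4 motifs were more frequent in the members' windows than in the windows of all coding genes, and members with and without them had medians on the same side of 0.

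On every pairing the members' median lay between the quartiles of all rows, and on C/D it came close to the upper quartile (0.29). The members' medians were -0.02 on A/B, -0.11 on A/C, 0.08 on A/D, -0.09 on B/C, 0.05 on B/D and 0.26 on C/D. The medians of all rows lay between -0.05 and 0.02. Of the 66 genes, 29 were above 0 on A/B, 27 on A/C, 37 on A/D, 25 on B/C, 39 on B/D and 44 on C/D. Thus the 2 pairings of a pair-fed group with alcohol-fed fracture tissue had most members below 0, and the pairing of both alcohol-fed groups had most members above 0. The most extreme single value was that of Uqcrc2 on A/D.

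**Figure D1:**
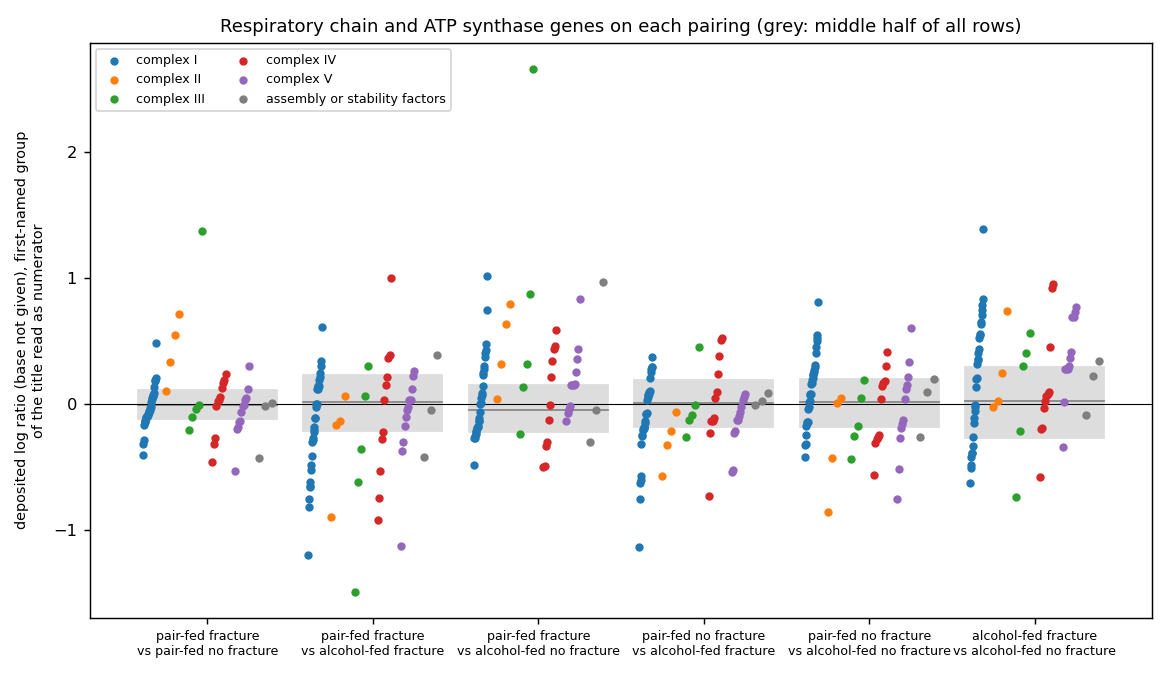
Deposited log ratio (vertical axis, base not given) of each of the 66 genes on each of the 6 pairings, coloured by complex; grey boxes span the quartiles of all rows and grey lines their median. Most points lie around the grey boxes, with member medians from -0.11 (A/C) to 0.26 (C/D), and Uqcrc2 at 2.66 stands alone.

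For fracture in alcohol-fed rats (C minus D), most respiratory chain genes lay on the positive side without any single gene passing the test. The members' median was 0.23, against 0.02 over all rows, and 45 of 66 (68.2%) were positive, against 53% of all rows. With the A/D column turned the median was 0.12 and 42 members were positive. After adjustment by limma 0 of 66 members were called, where 4.24% of all rows were (999), and 0 were called with the column turned, where 0% of all rows were. At an unadjusted p under 0.05 there were 15 members (22.7%) against 18.9% of all rows, and with the column turned 14 (21.2%) against 17.8%. The positive side held 13 of the 15 (19.7% of members, against 8.17% of all rows), and 12 of the 14 with the column turned (18.2% against 8.46%). The members' share in both directions was thus near that of all rows, and its split leaned to the fractured group. Leaving out the A/C pairing brought the count of called members from 0 to 1, which was Ndufb8.

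The complexes did not share one level in that comparison. Complex V had a median of 0.31 with 11 of 12 genes positive (0.21 and 10 with the column turned). Complex I had 0.22 with 21 of 31 positive (0.19 and 22 with the column turned). Complex II stood at 0.38 and complex III at 0.24, but with the column turned they stood at 0.02 and -0.03, so complex III changed side and complex II came close to 0. Complex IV stood at -0.02 with 5 of 11 positive, and at -0.00440 with the column turned. The 3 factors had a median of -0.03. Differences between complexes were not tested.

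**Figure D2:**
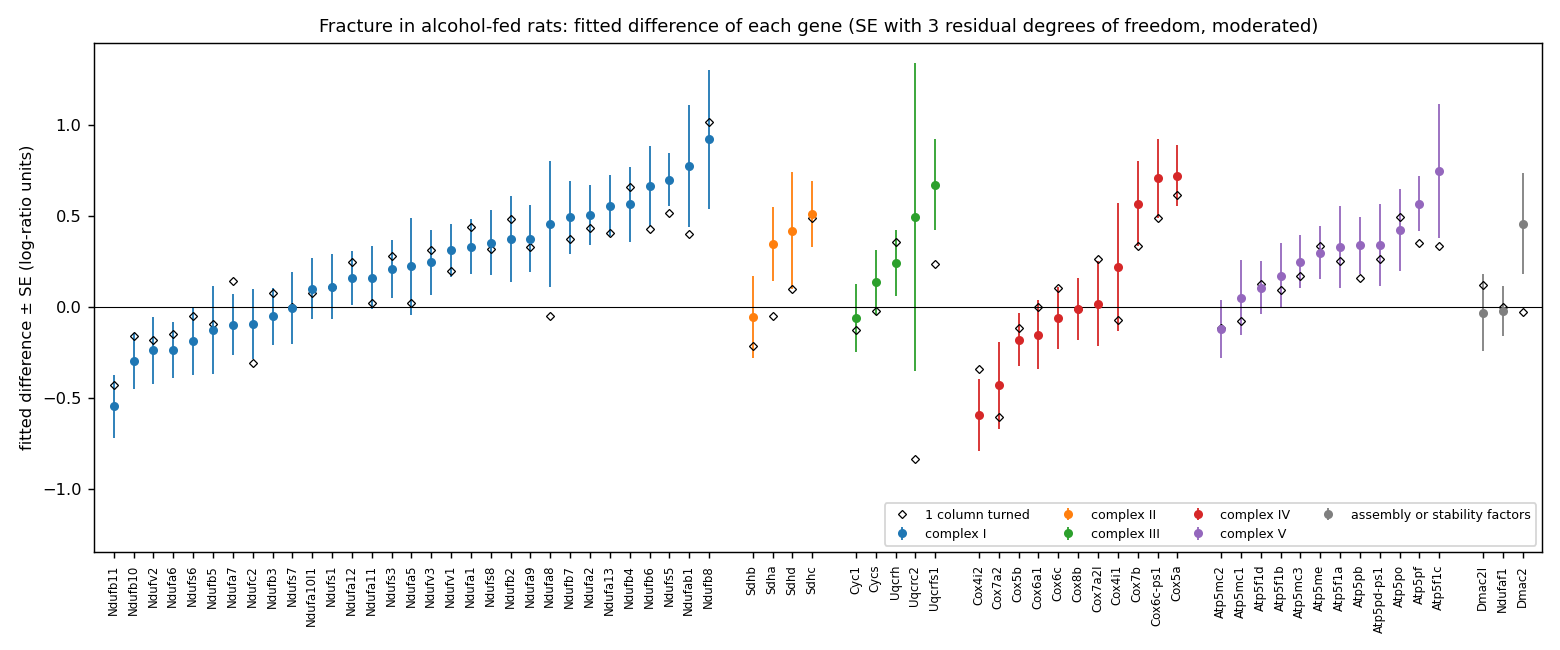
Fitted difference ± SE (vertical axis, log-ratio units) between groups C and D for each of the 66 genes, grouped by complex and sorted within it; open diamonds show the value with 1 column turned. Genes of complex V sit almost all above 0, complex IV spreads to both sides from -0.59 (Cox4i2) to 0.72 (Cox5a), and none of the 66 passed the adjusted threshold of 0.05.

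In complex I, the 6 core subunits had a median of 0.16 for fracture in alcohol-fed rats, and the 25 accessory subunits one of 0.24. With the A/D column turned these medians were 0.15 and 0.25. The accessory genes reached further to both sides, which a larger set can do by its size alone. Among the core genes, Ndufs1, Ndufv1 and Ndufv2 belong to the arm that oxidises NADH. Ndufs3, Ndufs7 and Ndufs8 belong to the part that passes electrons towards ubiquinone. Their fitted differences for fracture in alcohol-fed rats ran from -0.24 (Ndufv2) to 0.35 (Ndufs8), with 4 of 6 positive. With the A/D column turned 4 of 6 were positive, from -0.18 (Ndufv2) to 0.32 (Ndufs8), and Ndufv1 stood at 0.19. Ndufs1 stood at 0.11, Ndufs3 at 0.21, Ndufs7 at -0.01 and Ndufv1 at 0.31, and the smallest adjusted p of the whole complex was that of the accessory gene Ndufs5 by the titles and of Ndufb4 with the A/D column turned (limma, 0.148).

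Ndufs5, an accessory subunit of the membrane arm, read -0.16, -0.41, 0.37, 0.03, 0.55 and 0.75 on the 6 pairings. It was highest on the pairing of fractured with unfractured alcohol-fed rats and lowest on the pairing of pair-fed with alcohol-fed fractures. The fitted difference for fracture in alcohol-fed rats was 0.70 ± 0.14 (SE, limma, adjusted p = 0.05033). With the A/D column turned it was 0.51 ± 0.19 (limma, adjusted p = 0.247). The effect of alcohol in fractured rats was 0.33 ± 0.14 and in unfractured rats -0.60 ± 0.14, with adjusted p-values of 0.453 and 0.999 in limma. Both probes of Ndufs5 gave 0.70 for fracture in alcohol-fed rats.

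Ndufa13, also known as GRIM-19 and needed for assembly of the membrane arm, read 0.02, -0.62, 0.30, -0.24, -0.04 and 0.54. Its fitted difference for fracture in alcohol-fed rats was 0.55 ± 0.17 (limma, adjusted p = 0.137), and 0.40 with the column turned. One of its 2 probes, annotated as Ndufa13-ps, gave 0.85 and the other 0.25, and the first of them was called when probes were tested on their own (limma, adjusted p = 0.0361). Ndufb4, another membrane-arm subunit, had 0.21 for one probe and 0.91 for the other (adjusted p of the latter on its own = 0.0326 in limma). These probes had the same sign on B/C and C/D only, and on A/C they read 0.64 and -0.86. Averaging both probes of Ndufb4 gave 0.56 ± 0.20 (0.66 with the A/D column turned), so all values given for this gene are averages of probes that disagreed.

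Ndufb8 is a membrane-arm subunit widely used as a marker of assembled complex I. Its pairings read -0.29, 0.34, -0.19, -1.14, 0.31 and 1.385. The fractured alcohol-fed sample was high against both unfractured groups and low against the fractured pair-fed group. Its fitted difference for fracture in alcohol-fed rats was the highest of all members, at 0.92 ± 0.38 (limma, adjusted p = 0.262), and 1.02 with the A/D column turned. Without the A/C pairing it was 1.38 ± 0.17 (limma, adjusted p = 0.0275). Ndufab1, the acyl carrier protein of mitochondria, followed at 0.77 ± 0.34 and stood at 0.40 with the column turned, with pairing values from -1.20 on A/C to 0.75 on A/D.

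In complex I, 10 of 31 genes lay on the other side by the titles, with Ndufb11, Ndufb10 and Ndufv2 lowest. Ndufb11, an X-linked membrane-arm subunit, read 0.06, 0.61, -0.24, 0.25, 0.16 and -0.63, opposite in sign to Ndufa13 on every pairing but A/B. Its fitted difference for fracture in alcohol-fed rats was -0.55 ± 0.17 (limma, adjusted p = 0.154), and -0.43 with the column turned. Ndufb10, of the same arm, stood at -0.30 ± 0.15, and at -0.16 with the column turned. Ndufc2, a small membrane-arm subunit, stood at -0.10 ± 0.19 there, and at -0.31 with the column turned. For alcohol in fractured rats Ndufc2 stood at -0.26 ± 0.19, and at -0.04 with the column turned.

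Complex II, the only complex made wholly from nuclear genes, was measured in all 4 subunits. Sdha, the flavoprotein that oxidises succinate, read 0.55, -0.17, 0.79, -0.33, 0.05 and 0.02. Its values were highest where pair-fed fracture tissue was set against unfractured tissue. The fitted difference for fracture was 0.50 ± 0.20 in pair-fed rats and 0.34 ± 0.20 in alcohol-fed rats, with adjusted p-values of 0.9999 and 0.426 in limma. Turning the A/D column gave 0.10 ± 0.25 and -0.05 ± 0.25, so the direction in alcohol-fed rats was lost. Sdhb, the iron-sulfur subunit, gave 0.36 and -0.06 (0.20 and -0.22 with the column turned), and its lowest pairing value was -0.86 on B/D.

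The membrane anchors of complex II lay higher. Sdhc read 0.33, 0.06, 0.04, -0.58, 0.01 and 0.73, and its difference for fracture in alcohol-fed rats was 0.51 ± 0.18 (limma, adjusted p = 0.195), close to the 0.49 with the column turned. Sdhd gave 0.42 ± 0.32, and 0.10 with the column turned. For fracture in pair-fed rats all 4 genes were positive, with a median of 0.39 (0.15 with the column turned). The 4 genes are too few to set this against other groups, and none was called.

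In complex III, the values depended on the reading of A/D. Uqcrc2, a core protein of the complex, read 1.37, -1.49, 2.66, 0.45, -0.25 and -0.74. Its residual standard deviation of 1.76 was the highest of all members, and its fitted difference for fracture in alcohol-fed rats was 0.49 ± 0.85, or -0.84 ± 0.70 with the A/D column turned. No direction can be given for this gene. Uqcrfs1, the Rieske iron-sulfur protein, read -0.20, -0.62, 0.87, -0.01, 0.05 and 0.56. Its difference was 0.67 ± 0.25 (limma, adjusted p = 0.212), and 0.23 with the column turned. Cyc1, which holds the haem of cytochrome c1, gave -0.06 ± 0.19, and -0.13 with the column turned. Uqcrh, the hinge protein, gave 0.24 ± 0.18 (0.36 turned), and Cycs, the mobile carrier cytochrome c, gave 0.13 ± 0.18, and -0.03 with the column turned.

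Complex IV genes lay on both sides of 0. Cox5a, a nuclear subunit on the matrix side, read -0.46, -0.28, 0.22, -0.13, 0.41 and 0.92. It was below 0 on A/B and on both pairings of a pair-fed group with group C, and highest on C/D. The fitted difference for fracture was -0.32 ± 0.17 in pair-fed rats and 0.72 ± 0.17 in alcohol-fed rats (limma, adjusted p = 0.0679 for the latter). The latter was 0.61 ± 0.19 with the column turned. Cox5b, its partner on the matrix side, gave -0.18 ± 0.15 (-0.12 turned), and Cox7b 0.57 ± 0.23 (0.33 turned).

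The isoforms of subunit 4 had opposite signs by the titles and the same sign with the A/D column turned. Cox4i1, the common isoform of subunit 4, gave 0.22 ± 0.35, and -0.07 with the column turned. Cox4i2, the isoform known from lung and from low oxygen, read 0.24, 0.36, -0.50, 0.52, 0.17 and -0.58. It was below 0 on both pairings that set fracture against unfractured alcohol-fed tissue. Its difference for fracture in alcohol-fed rats was -0.59 ± 0.20 (limma, adjusted p = 0.169), the lowest of all members by the titles. With the column turned it was -0.34, and Uqcrc2, Cox7a2 and Ndufb11 were lower. Cox6a1, the common isoform of subunit 6a, gave -0.15 ± 0.19, and -0.0044 with the column turned. Cox7a2l, which joins complexes III and IV, gave 0.02 ± 0.23, and 0.26 with the column turned. Cox6c gave -0.06 ± 0.17 (0.10 turned) while the probe of its pseudogene Cox6c-ps1 gave 0.70 ± 0.22 (0.49 turned).

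Cox7a2, the common isoform of subunit 7a, could not be given one value. One of its probes read -0.36, 0.50, 0.71, -0.52, -0.69 and 0.54, and the other read -0.19, 1.499, -0.03, 1.28, 0.08 and -0.92. They differed by more than 1 unit and in sign on B/C and C/D. For fracture in alcohol-fed rats the first gave 0.28 and the second -1.15, the latter called when probes were tested on their own (limma, adjusted p = 0.0287).

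Cox8b, a muscle isoform in rats, stood near 0, unlike most genes of the skeletal muscle list below. It read 0.02, -0.22, -0.01, -0.13, -0.57 and 0.08, with a difference for fracture in alcohol-fed rats of -0.02 ± 0.17. Cox6a2, the muscle gene that was left out, read 0.92, -1.70, 0.64, -2.07, -1.13 and 2.18. Its difference was 1.91 ± 0.26 (limma, adjusted p = 0.028), and 1.59 ± 0.28 with the column turned (limma, adjusted p = 0.0833). Of 16 measured genes of a skeletal muscle list, 4 rose (Tnni2, Myl11, Actn2 and Mybpc2), 1 fell (Eno3) and 11 were not called. The list had 14 of 16 genes positive, with a median of 0.97 and a range from -1.18 to 2.08. Turning the A/D column gave a median of 0.72 with 0 called by limma. The part of muscle tissue in the members' values was not tested.

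In complex V nearly all fitted differences for fracture in alcohol-fed rats were on the positive side. In the catalytic head, Atp5f1a and Atp5f1b, the alpha and beta subunits, gave 0.33 ± 0.23 and 0.17 ± 0.18 for fracture in alcohol-fed rats. With the column turned they gave 0.25 and 0.09. Atp5f1c, the gamma subunit of the turning stalk, read 0.12, -1.13, 0.83, -0.23, -0.75 and 0.77. It gave 0.74 ± 0.37, and 0.33 with the column turned. Atp5f1d, the delta subunit, gave 0.10 ± 0.15 (0.12 turned).

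The fixed outer stalk of complex V was measured in Atp5pf, Atp5pb and Atp5po. Atp5pf, its coupling factor 6, read 0.30, -0.11, 0.44, -0.52, -0.19 and 0.69. Fractured tissue was on the high side of all 4 pairings that set it against unfractured tissue, or of 3 with the A/D column turned. The fitted difference was 0.57 ± 0.15 in alcohol-fed rats (limma, adjusted p = 0.104) and 0.41 ± 0.15 in pair-fed rats (limma, adjusted p = 0.9999). The alcohol-fed value was 0.35 ± 0.21 with the A/D column turned. Atp5pb gave 0.34 ± 0.16 and Atp5po 0.42 ± 0.22 in alcohol-fed rats (0.16 and 0.49 with the column turned). Atp5me, a small membrane subunit, read -0.18, -0.18, -0.07, 0.08, 0.33 and 0.41 and gave 0.30 ± 0.15 (0.33 turned).

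The ring of complex V is built from 3 genes that encode one mature protein. Atp5mc1 gave 0.05 ± 0.20 (-0.08 with the column turned), Atp5mc2 -0.12 ± 0.16 (-0.12 turned) and Atp5mc3 0.25 ± 0.15 (0.17 turned) for fracture in alcohol-fed rats. None of the 3 was called, and Atp5mc2 was the 1 gene of complex V below 0 by the titles. Of the factors, Ndufaf1, which assembles complex I, gave -0.03 ± 0.14, and -0.0017 with the column turned. Dmac2 gave 0.45 ± 0.28, and -0.03 with the column turned. Dmac2l gave -0.03 ± 0.21, and 0.12 with the column turned.

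The difference between C and D can be read along 3 paths that share no numbered sample, directly on C/D, through group A and through group B. The members' medians were 0.26, 0.13 and 0.10 on these paths, against 0.02, -0.07 and 0.02 for all rows. On all 3 paths 16 members (24.2%) were positive, against 16.3% of all rows, and 4 (6.06%) were negative, against 18.2%. With the A/D column turned, 13 members (19.7%) were positive on all 3, against 19.8%, and 5 (7.58%) negative, against 17.1%. The positive share was thus at the background once the column was turned, and the negative share was below it on both readings. In complex V, 11, 10 and 8 of 12 genes were positive on the 3 paths by the titles, and 6 on all of them. With the column turned, its path through group A had 4 of 12 genes positive and a median of -0.11. On that reading 2 genes of complex V were positive on all 3 paths.

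Ndufs5 gave 0.75, 0.79 and 0.52 on the 3 paths, and Cox5a gave 0.92, 0.49 and 0.54. The other genes positive on all 3 were Ndufv1, Ndufa1, Ndufa12, Ndufa13, Ndufa2, Sdha, Uqcrfs1, Cox7b, Atp5f1a, Atp5f1d, Atp5mc3, Atp5me, Atp5pb and Atp5pf. Those negative on all 3 were Ndufb11, Cox4i2, Cox5b and the average of the disagreeing probes of Cox7a2. Cox4i2 turned positive, at 0.14, on the path through group A with the column turned. With the column turned, the path through group A gave 0.04 for Ndufs5 and 0.06 for Cox5a, so the other 2 estimates carry the difference of both genes on that reading. The same path was then negative for 7 of the 16 genes, namely Ndufv1, Sdha (-0.62), Uqcrfs1 (-0.25), Atp5f1a (-0.18), Atp5mc3, Atp5pb and Atp5pf (-0.33). Ndufab1 and Atp5f1c show how single paths can dominate, with 1.95 and 1.96 through group A and -0.28 and -0.52 through group B.

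**Figure D3:**
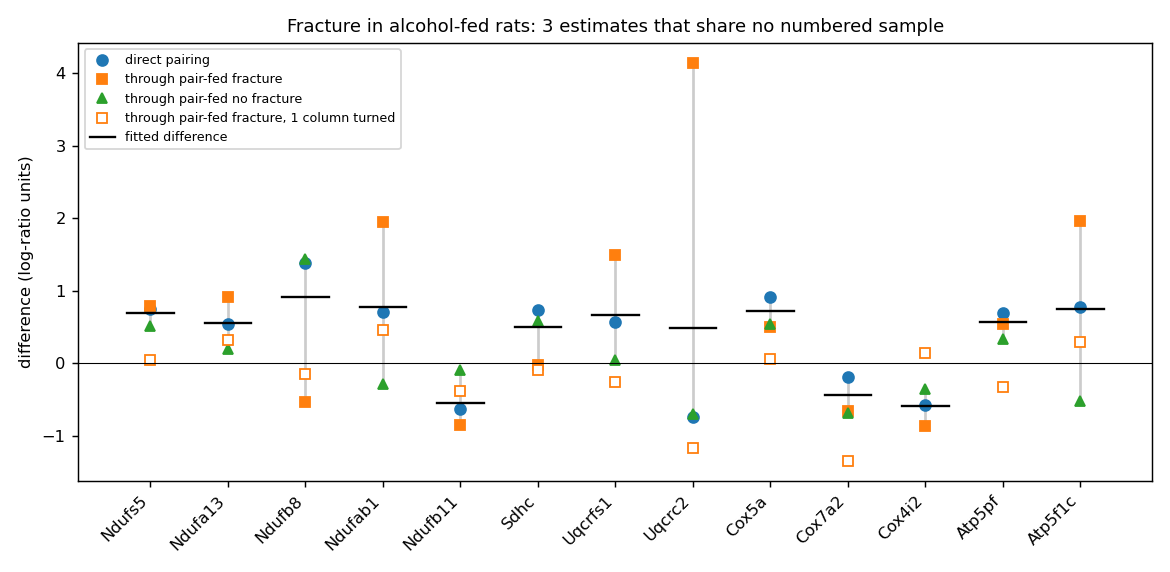
Difference between groups C and D (vertical axis, log-ratio units) for 13 genes along 3 paths that share no numbered sample; filled symbols follow the titles, open squares have 1 column turned, and black bars are the fitted difference. Ndufs5 and Cox5a keep the 3 filled symbols between 0.49 and 0.92 but have open squares near 0 (0.04 and 0.06), while the filled symbols of Uqcrc2, Ndufab1 and Atp5f1c spread over more than 2 units.

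For alcohol in fractured rats (C minus A), the comparison the design names first, the members lay slightly towards the alcohol-fed side. The median was 0.13, against 0.02 over all rows, with 50 of 66 genes positive (75.8%, against 52.9% of all rows). It was 0.18 with 47 positive when the A/D column was turned. By limma 0 members were called, where 0% of all rows were, and with the column turned 0 members were called, where 1.85% of all rows were. At an unadjusted p under 0.05 there were 6 members (9.09%), against 11.5% of all rows. Turning the column gave 16 (24.2%), against 20.3%, of which 14 were positive (21.2% of members against 9.39% of all rows).

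Every complex had a positive median for alcohol in fractured rats by the titles, from 0.10 in complex II to 0.15 in complex I. With the A/D column turned, complex IV went to -0.12 and the others stayed positive. Ndufa1, a small subunit of complex I, had the smallest p by the titles. It read 0.09, -0.53, -0.22, -0.75, -0.14 and 0.20, with group C on the high side of all 3 of its pairings. Its difference was 0.53 ± 0.15 (limma, adjusted p = 0.248), and 0.42 ± 0.16 with the column turned. Cox5a followed at 0.46 ± 0.17 (0.57 turned). Ndufab1 had the highest value by the titles, 0.61 ± 0.34, and with the column turned it was 0.98 ± 0.25 and had the smallest adjusted p of all members on that reading (limma, adjusted p = 0.0987). Cox7a2 had the lowest by the titles, -0.66 ± 0.24 (-0.49 turned), with the probes apart as above. In the same comparison Cox6a2 stood at 1.52 ± 0.26 (limma, adjusted p = 0.116) and the skeletal muscle list at a median of 0.90 with 0 called. With the A/D column turned Cox6a2 stood at 1.84 (limma, adjusted p = 0.0355) and the list at 1.27, with Tnni2 and Myl11 called. The medians of the erythroid, proliferation, osteoclast and neutrophil lists were -0.64, -0.79, -0.69 and -0.44 by the titles with 0 called. Those of the macrophage, adipocyte, osteoblast and chondrocyte lists were 0.22, 0.15, -0.16 and -0.16, also with 0 called. On the turned reading Alas2, Ahsp and Slc25a37 (erythroid), Mki67, Cdc20 and Mcm7 (proliferation) and Matn1 (chondrocyte) were called too. The part of these cells in the members' values was not tested.

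Along the 3 paths of this comparison the members' medians were 0.11 on A/C, 0.11 through group B and 0.11 through group D, against -0.02, 0.0007 and 0.03 for all rows. With the A/D column turned, the path through group D gave 0.41 in place of 0.11. Single genes varied more between paths than these medians did. On all 3 paths 19 members (28.8%) were positive, against 16.8% of all rows, 7 (10.6%) were negative, against 17.7%, and 40 were mixed. With the column turned 25 (37.9%) were positive, against 19.4%, and 9 (13.6%) negative, against 22.8%. Across the 66 genes, the values on A/C correlated at -0.21 with those through group B and at -0.43 with those through group D, and the 2 indirect paths correlated at 0.67. Over all rows these correlations were 0.21, -0.06 and 0.43. Turning the A/D column moved the correlation of A/C with the path through group D to 0.58 for the members and 0.63 for all rows, and that of the indirect paths to 0.11 and 0.35. All these values come from probes of 1 array design, centred on each column's mean.

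The other 2 group differences were smaller. For alcohol in unfractured rats (D minus B) the members' median was -0.10, against -0.01 over all rows, with 20 of 66 positive (30.3%, against 47.5%). The median was -0.04 with 30 positive when the column was turned, against -0.02 over all rows. Limma called 0 members on either reading, where 0% of all rows were called on both, and 2 had an unadjusted p under 0.05 (3.03%, against 3.48% of all rows). With the column turned 6 did (9.09%, against 6.72%). The lowest by the titles were Ndufs5 at -0.60 and Cox5a at -0.57. With the column turned they stood at -0.42 and -0.46, and the lowest were Atp5po and Ndufb2 at -0.50 and -0.49. Both genes had positive values for alcohol in fractured rats, and neither was called in either comparison.

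For fracture in pair-fed rats (A minus B) the median was 0.0065, against -0.02 over all rows, with 34 of 66 positive. It was -0.04 with the column turned. No member was called by limma (0 of 66) on either reading, where 0% of all rows were called on both. At an unadjusted p under 0.05 there were 2 members, Sdha and Atp5pf (3.03%, against 1.9% of all rows), and with the column turned 1 (1.52%, against 2.88%). The A/B pairing also had the smallest spread over all probes, with a standard deviation of 0.25 against 0.57 on C/D.

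The interaction asks whether the difference made by fracture depended on diet. It was positive, towards a larger difference in alcohol-fed rats, for 47 of 66 members (71.2%, against 54.4% of all rows). The members' median was 0.15 against 0.04 over all rows. These values take no weight from A/D and do not change when it is turned, although their errors do. By limma 0 members were called, where 0% of all rows were on both readings. At an unadjusted p under 0.05 there were 4 (6.06%, against 10.6% of all rows), all positive, and 8 with the column turned (12.1%, against 12%). The share of members in both directions was thus at or under the background. On the positive side there were 4 of 66 members (6.06%) against 898 of 23549 rows. With the column turned there were 7 members (10.6%) against 1138 rows. That positive share was larger for the members than for all rows on both readings.

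The 4 genes were Ndufs5, at 0.93 ± 0.20, Cox5a, at 1.04 ± 0.23, Ndufb7, at 0.94 ± 0.28, and Atp5me, at 0.55 ± 0.21. Their adjusted p-values in limma ran from 0.184 for Ndufs5 to 0.406 for Atp5me. Complex V had the highest median, 0.28, followed by complex I at 0.24, and complexes II and III stood at -0.08 and -0.07. The interaction has 2 separate estimates, from the pairings within each diet and from those within each fracture state. The members' medians were 0.27 and 0.16, against 0.03 and 0.02 for all rows, and 29 members (43.9%) were positive on both, against 30.4% of all rows.

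**Figure D4:**
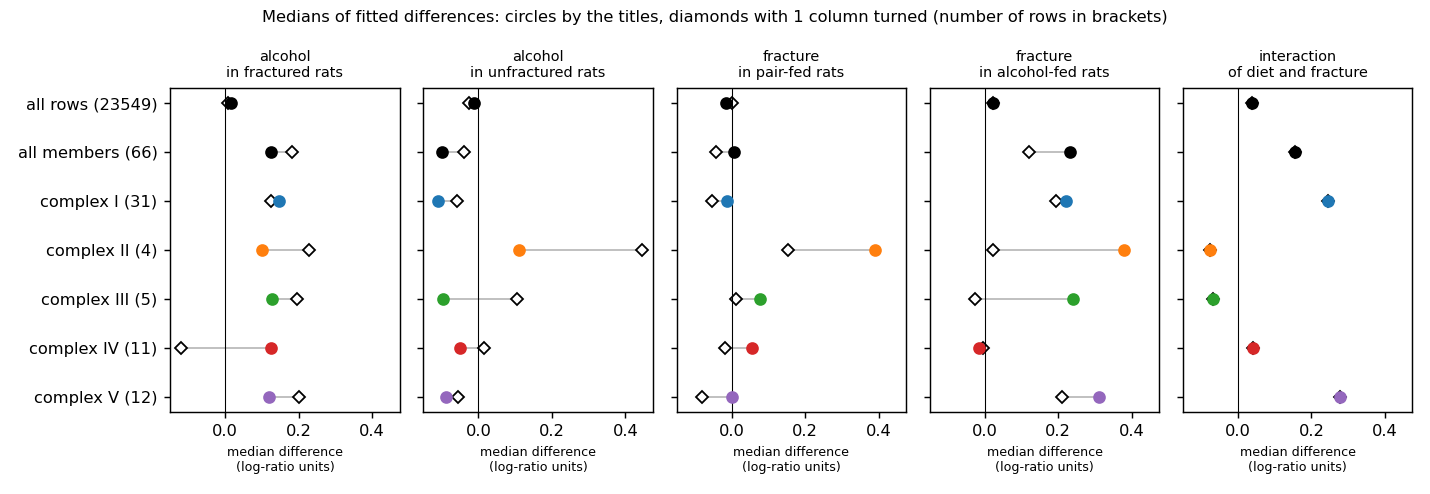
Median fitted difference (horizontal axis, log-ratio units) of all rows, all members and complexes I to V in the 5 comparisons; circles follow the titles and diamonds have 1 column turned. The members stand apart from all rows most for fracture in alcohol-fed rats by the titles (0.23 against 0.02), while with the column turned the gap is wider for alcohol in fractured rats (0.18 against 0.0084).

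Lists of other mitochondrial genes had medians on both sides of 0, and their difference from the members was not tested. For fracture in alcohol-fed rats, the 14 measured genes of the tricarboxylic acid cycle had a median of 0.10 (-0.02 with the column turned), and 1 of them, Suclg2, fell by 1.04 ± 0.20 (limma, adjusted p = 0.0439). The 15 assembly factors outside the rule had a median of 0.0023, and 1 fell, Atpaf2, which assembles the head of complex V (-1.16 ± 0.18, limma, adjusted p = 0.0297). The 15 genes of mitochondrial biogenesis, such as Ppargc1a, Nrf1 and Tfam, had a median of 0.20 with 11 positive (0.16 and 11 with the column turned), close to the members' 0.23 by the titles and above their 0.12 with the column turned. Of them, 1 fell, Gabpb1, a subunit of the ETS factor GABP (-0.92 ± 0.16, limma, adjusted p = 0.035). Carriers and porins, 13 genes, had a median of -0.01, and 1 fell, the uncoupling protein Ucp3 (-1.04 ± 0.20, limma, adjusted p = 0.0419). The 16 genes of fatty acid oxidation had a median of -0.06 and 0 were called. Limma called 0 genes of these 5 lists with the A/D column turned.

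Markers of other cells moved in the same comparison, and their part in the members' values was not tested. Of 12 erythroid genes 4 fell (Alas2, Ahsp, Slc25a37 and Fech), with a median of -0.66 and a range from -2.17 to 0.27. Of 9 proliferation genes 3 fell (Mki67, Cdc20 and Mcm7), with a median of -0.98 and a range from -1.60 to 0.89. Of 7 macrophage genes 2 rose (Cd14 and Lyz2), with a median of 0.34 and a range from -0.46 to 0.99. Of 7 neutrophil genes 1 fell (S100a9), with a median of -0.66 and a range from -1.68 to 0.35. Of 9 osteoblast genes 1 fell (Col1a2), with a median of -0.15 and a range from -0.90 to 0.57. Of 6 chondrocyte genes 1 fell (Matn1), with a median of -0.39 and a range from -1.83 to 0.68. The 4 osteoclast and 6 adipocyte genes had medians of -0.59 and 0.06, with ranges from -1.24 to 0.21 and from -0.15 to 0.40 and 0 called by limma. With the column turned 0 genes of these lists were called for this comparison by limma.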

How the data were processed

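The deposited values, 1 log ratio per probe for each of 6 pairings, were used as deposited. Per the labels' protocols, RNA came from frozen, milled tissue by the Trizol method, was amplified to antisense RNA and dyed with Cy3 or Cy5. The sources used here do not give the log base, numerator, scanner, background correction, filters or genome build. The design text gives each pairing a dye swap (12 arrays), so a deposited column appears to combine 2 arrays. Column means are 0, which hides any shift shared by all genes.

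From 26503 probes, 22 control spots were left out. Symbols came from the platform annotation and were updated through a current rat table (18 of the 72 member probes changed symbol). Probes of 1 gene were averaged into 23549 rows. All rows were fitted with limma 3.58.1 in R 4.3.3, each column coded as its first-named minus its second-named group, with two-sided tests adjusted by Benjamini-Hochberg. The moderated variance had 3.66 prior degrees of freedom and a prior standard deviation of 0.258. The fit was tested on simulated data.

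The members, lists, comparisons and alternatives were chosen with earlier results of these data known. Named members were those called in any comparison, the 2 highest and 2 lowest of each complex for fracture in alcohol-fed rats and for alcohol in fractured rats, those fixed by role (25 reported here), and genes whose probes disagreed, 40 in all. Of the other lists, called genes and Cox6a2 were named by rule. Other members, and the members named for their paths, their p-values or their promoters, were chosen after their values were seen. Alternatives were the A/D column turned, columns scaled or centred on the median, probes not averaged, rows without symbol left out, unmoderated variances, current symbols for the rule, the direct pairing alone, and each pairing left out.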

Additional observations from a re-analysis of the deposited data

How the results depend on the processing

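No paired analysis was possible because each numbered sample was used in 1 pairing only and each column is a ratio of 2 groups. For fracture in alcohol-fed rats the count of called members was 0 as reported, 1 with columns centred on the median and 1 without rows lacking a symbol (Ndufs5 in both), 1 when members were chosen by current symbols (of 73; Ndufaf6, which fell by 0.98, adjusted p = 0.0435 in limma) and 3 of 72 probes without averaging (Cox7a2, Ndufa13 and Ndufb4). Leaving out 1 pairing at a time gave 0 to 1, with 1, Ndufb8, without A/C. Called rows over the whole table were 999 of 23549 as reported and by current symbols, 1007 centred, 440 scaled and 2 unmoderated. There were 1224 of 26481 probes without averaging, and 568 of 12589 rows without those lacking a symbol. With 1 pairing left out there were 0 to 918, being 918 without A/C and 0 without A/B, without A/D and without C/D. For alcohol in fractured rats 435 rows were called with A/D turned and 4 with unmoderated variances. The members' median moved with A/D turned to 0.1823 for alcohol in fractured rats, to -0.0387 for alcohol in unfractured rats and to 0.1208 for fracture in alcohol-fed rats. For alcohol in unfractured rats it ran from -0.1099 to -0.0358 with 1 pairing left out, reaching the latter without A/D. On the direct pairings alone the interaction median was 0.2673. These causes were not tested beyond the changes named. For fracture in pair-fed rats the median lay from -0.04138 to 0.03893 over all alternatives, on both sides of 0. Of 80 values of named members (2 comparisons of 40 genes), none called, 14 changed sign with A/D turned, 6 with columns scaled, 16 on the direct pairing and 4 to 17 with 1 pairing left out. No background signal was at hand to filter on, and precision rests on the number of arrays.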

Other observations

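Values of the members that the current symbols would add to the rule were computed beside the others. Atp5mk, a small membrane subunit of the ATP synthase, stood at 0.89 ± 0.18 for fracture in alcohol-fed rats (limma, adjusted p = 0.0508), and at 0.73 ± 0.22 with the A/D column turned. Ndufaf6, an assembly factor of complex I, stood at -0.98 ± 0.19 (limma, adjusted p = 0.0435), and at -0.83 ± 0.24 with the column turned (limma, adjusted p = 0.169). Of the other assembly factors of complex I, Ndufaf3 stood at -0.13 ± 0.17, Ndufaf4 at 0.23 ± 0.32, Ndufaf5 at 0.42 ± 0.32 and Ndufaf7 at 0.24 ± 0.23. With the column turned they stood at -0.11, 0.10, 0.10 and 0.11. The assembly factors of complex II, Sdhaf2 and Sdhaf3, stood at 0.06 ± 0.14 and -0.29 ± 0.25 (-0.06 and -0.10 with the column turned). Atp5hl1 stood at 0.15 ± 0.16 (0.01 turned).

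Among the carriers and the cycle enzymes, other genes stood away from 0 without being called for fracture in alcohol-fed rats. Suclg1, a subunit of succinyl-CoA ligase, stood at 1.07 ± 0.27 (limma, adjusted p = 0.0879), on the other side of 0 from Suclg2. Tomm20, a receptor for imported proteins, stood at 0.70 ± 0.15, and Idh3a, a subunit of the NAD-dependent isocitrate dehydrogenase, at 0.71 ± 0.15. The porin Vdac2 stood at -0.76 ± 0.17 and the adenine nucleotide carrier of muscle, Slc25a4, at 0.61 ± 0.19. These genes were chosen after their values were seen.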
